A study of Rattus norvegicus with 65 samples.

Results

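The comparison described here is that of primary neonatal rat cardiomyocytes exposed to 5-fluorouracil (5FU) for 24 hours with cells kept for the same time in the DMSO of those wells. It rests on the 6 libraries labelled 5FU at 24 hours (10 mM 5FU in 1% DMSO) and the 6 libraries labelled DMSO1 at 24 hours (1% DMSO alone), which are 12 of the 65 libraries of the study, and it covers all 14554 genes of the count table. The study exposed the cells to 5FU, acetaminophen (Ace, 2.5 mM) or doxorubicin (Dox, 1.25 µM) for 6 or 24 hours, Ace and Dox with a control of their own, DMSO2, at 0.25% DMSO. The concentrations were chosen for their effect on cell viability, and the question was how cardiomyocytes change when exposed to them. Hearts of 3 litters were digested on 1 day and the cells were mixed before plating, so each library is a culture well of a single mixed preparation, and the p-values measure the spread between wells and not between animals. The cells were deprived of serum before the drugs were added.

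5FU is an antimetabolite used against solid tumors, and chest pain, arrhythmia and loss of contractile function are among its known side effects. Cells convert it to fluorinated nucleotides. One of these blocks thymidylate synthase, the enzyme that makes the thymidine nucleotide for DNA, and others are built into DNA and RNA in place of uracil or thymine. In dividing cells the outcome is a shortage of thymidine, DNA damage and activation of p53, the transcription factor that induces the cell cycle inhibitor p21 (Cdkn1a). In RNA, the fluorinated base is known to disturb the maturation of ribosomal RNA, the modification of uridines and the work of the RNA exosome. Cardiomyocytes of newborn rats have mostly left the cell cycle, and the cultures also hold fibroblasts and other cells of the heart that still divide.

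The labelled cell type was checked against its markers. Of 12 cardiomyocyte marker genes, 11 were in the table, and their summed level was 35799 to 38401 CPM (counts per 1000000 counts of the library, scaled with TMM factors) in 5FU and 44560 to 48574 CPM in DMSO1 without its first library. At the threshold described below, 5 of the 11 were lower in 5FU and 2 higher (median log2 fold change -0.22). The sum includes Nppa, which rose. Tnnt2, the cardiac troponin T of the thin filament, was among those not called. It lay at 6055 to 6772 CPM (median 6407) in 5FU and at 6541 to 7668 CPM (median 7188) in DMSO1. Fibroblast markers were present as well, with a summed level of 15247 to 20215 CPM in the same 5 DMSO1 libraries, so the cultures were a mixture. In such bulk libraries fewer cells of a type and less RNA per cell cannot be told apart. Total counts were 16326299 to 20016369 in 5FU and 14332827 to 19512827 in DMSO1, and 12408 genes had at least 10 counts in each of the 12 libraries. No pair of libraries within a group agreed within sampling noise, and all were kept as separate replicates.

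One control library stood apart. It was known beforehand for its high Cdkn1a, so its level of that gene is a description and no test. The DMSO1 library that comes first in file order, called library 1 below, had 699 CPM of Cdkn1a, where the other 5 DMSO1 libraries had 95.8 to 114 CPM and the 5FU libraries 841 to 913 CPM. Its place between the groups was measured gene by gene, as its distance from the mean of the other 5 DMSO1 libraries in percent of the distance from that mean to the 5FU mean, on log2 CPM. Over the 8304 genes called without library 1, this position had a median of 41% (quartiles 18.3% and 63.7%). For each of the other 5 libraries, set against a control mean that includes library 1, the median lay between -9.75% and -7.31%. With library 1 kept out of that mean, it lay between -0.83% and 1.74%. On the first principal component, which held 76.7% of the variance of the 12 libraries, library 1 was at -5.82, the other DMSO1 libraries between -32.8 and -29.4, and the 5FU libraries between 25.1 and 29.8. The position was not the same for all groups of genes, with a median of 84.6% over 30 p53 targets, 73.9% over 44 oxidative phosphorylation genes, 44.1% over 30 collagens, 36.2% over 32 proteasome genes and 17.7% over 21 sarcomere genes. Of the genes with a mean count of at least 100, the 10 by which library 1 differed most from the other 5 included Ano3, Gdf15, Mfap4, Srm, Sbk1, Atn1 and 4 genes without a symbol. Ano3 was at 42.1 CPM in library 1 against 2.87 to 4.43 CPM (median 3.96) in the other 5. Its 5FU libraries lay at 16.8 to 18.8 CPM, so library 1 was above both groups. Srm, Sbk1 and Atn1 varied widely within 5FU or DMSO1, so their differences are uncertain. Ano3, which encodes a membrane protein of the anoctamin family, did not pass the threshold described below with library 1 (log2 fold change 0.78 ± 0.32 (SE), FDR 0.027) and did without it (2.22 ± 0.19, FDR 5.9e-16). The library stays in the group its label gives, and results are also given without it where they differ, as stated below.

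**Figure D1:**
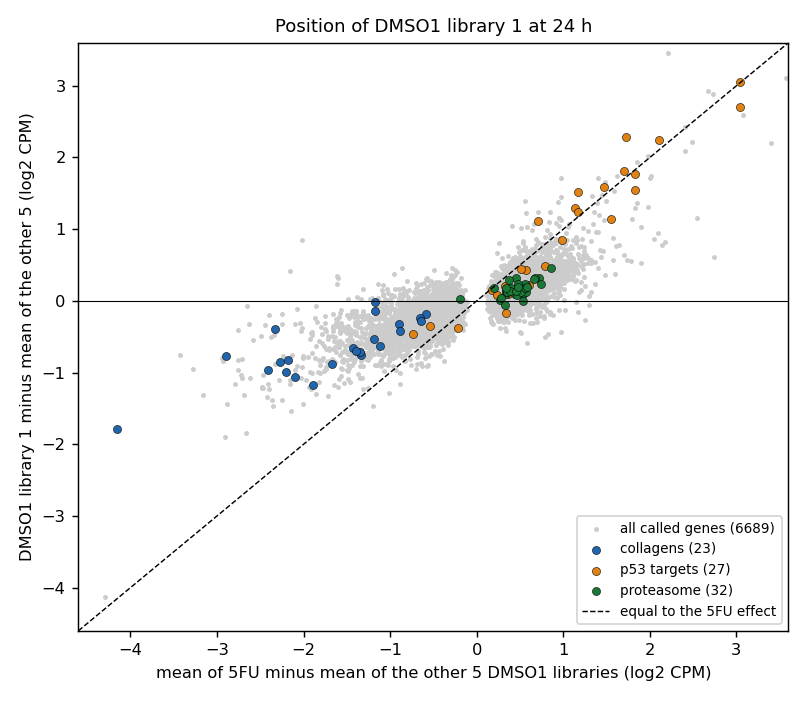
Each point is 1 of 6689 genes called without DMSO1 library 1 and with a mean count of at least 100 (1 gene lies outside the axes): the horizontal axis is the difference between the 5FU mean and the mean of the other 5 DMSO1 libraries (log2 CPM), the vertical axis the difference of library 1 from the same 5, and the dashed line marks equal values. Most points with a negative 5FU difference lie between the horizontal line at 0 and the dashed line, while many p53 targets (orange) lie on or above the dashed line.

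At a false discovery rate (FDR) below 0.01 in edgeR's quasi-likelihood test, with Benjamini-Hochberg adjustment over all genes, 8117 of the 14554 genes (55.8%) differed between 5FU and DMSO1 at 24 hours, 4070 of them higher in 5FU (28%) and 4047 lower (27.8%). Without library 1 the count was 8304 (57.1%), with 4163 higher (28.6%) and 4141 lower (28.5%). The 2 fits shared 7932 calls, and all of them had the same direction. The changes were unequal in size: 316 genes rose and 1174 fell by at least 1 on the log2 scale, and without library 1 these counts were 414 and 1301. Since more genes passed the threshold than did not, the counts for gene groups below are read against these shares, and the median log2 fold change of a group against that over all genes, which was -0.01 in both fits. The gene groups were written from general knowledge of each pathway, with earlier results of these data known, so their counts and medians are descriptions. Group counts are those with all 12 libraries, followed by those without library 1 where they differ, and 24 of 52 groups had the same counts in both fits. The largest shift of a group's median on leaving out library 1 was 0.16 on the log2 scale. Of 185 genes named in the text, 181 were on the same side of the threshold in both fits, and none called in both changed sign. Ano3, Tyms and Col20a1 passed only without library 1, and Uqcrc2 only with it. Leaving it out changed the fold by more than 1.5 times in Ano3, Cdkn1a, Gdf15, Tg, Gtse1, Ddias, Ltk, Eda2r, Ephx1, Ankrd13d and Psrc1, whose values without it are given in the text. Among the other called genes named the largest shift was 0.52 on the log2 scale.

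**Figure D2:**
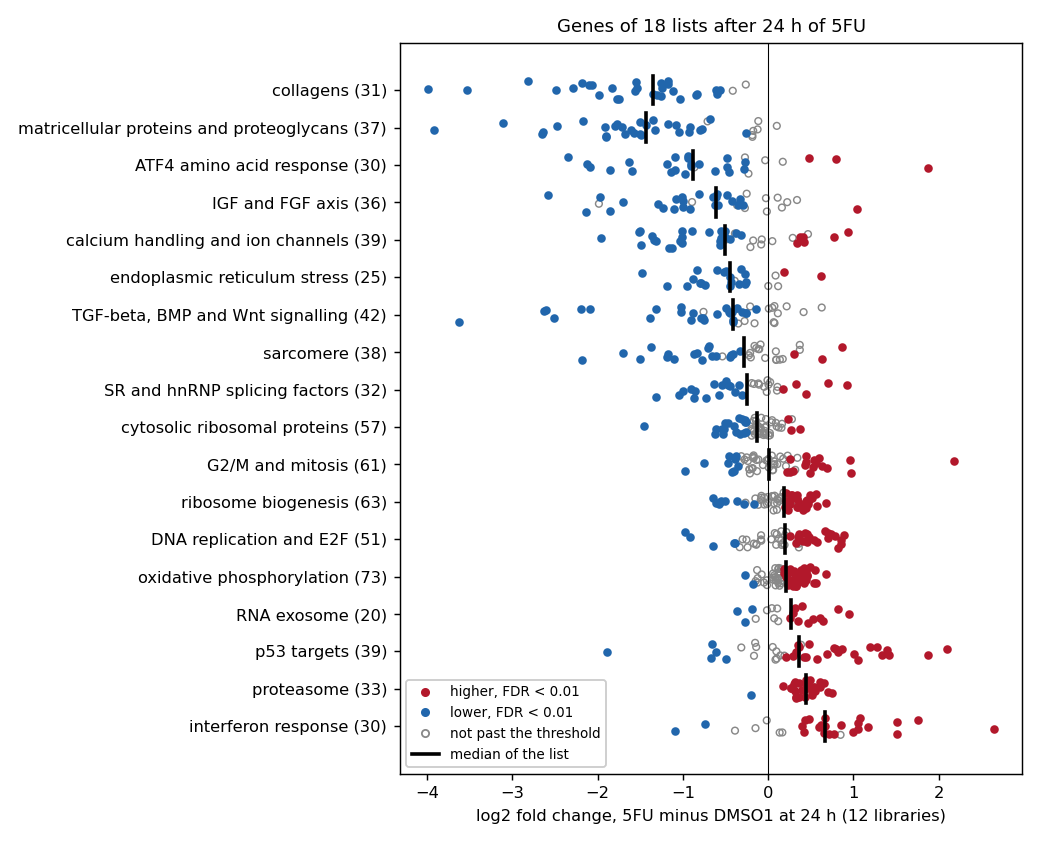
Each point is a gene of 1 of 18 groups (number of genes measured in parentheses), placed at its log2 fold change between 5FU and DMSO1 at 24 hours with all 12 libraries; filled red and blue points passed an FDR of 0.01, open points did not, and the black bar is the group's median. Medians run from -1.43 for matricellular proteins and -1.34 for collagens to 0.45 for the proteasome and 0.66 for the interferon response.

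Among the genes with at least 100 counts on average, the largest rise in both fits was that of Tg, with 24 to 27.6 CPM (median 24.8) in 5FU, 1.89 to 2.88 CPM (median 2.41) in 5 DMSO1 libraries and 11 CPM in library 1 (log2 fold change 2.72 ± 0.23 (SE), FDR 2.6e-16; without library 1 3.43 ± 0.18). Tg encodes thyroglobulin, and the gene Sla lies within it on the other strand. Without strand information, reads of any exons that overlap could not be told apart, and such overlap was not checked. The other large rises were those of Tppp3 (2.65), Adprhl1 (2.27), Gtse1 (2.19), Cdkn1a (2.10), Masp2 (2.0), Gdf15 (1.88), Nppa (1.88), Ddias (1.79), Wbp11 (1.78), Rasgrp1 (1.69) and Ltk (1.67). Without library 1 the log2 fold changes of Gtse1 (3.08), Ltk (2.80) and Ddias (2.46) were larger. Ephx1 (2.67, against 1.6 with library 1), Ankrd13d (2.41 against 1.6) and Psrc1 (2.11 against 1.39) were named here after their values were seen. Among genes called in both fits, these would then stand among the 12 largest rises in place of Nppa, Wbp11 and Rasgrp1. Ano3 (2.22 without library 1) would rank above Psrc1 but was called only in that fit. Adprhl1, a heart-specific relative of the ADP-ribosyl hydrolases, was at 237 to 271 CPM (median 239.8) in 5FU and at 37.3 to 47 CPM (median 41.7) in the 5 controls, with library 1 at 94.9 CPM. Wbp11 ranged from 2.98 to 11.5 CPM within DMSO1 and is uncertain. Related sequences could share its reads, which was not tested. The largest falls were those of Col6a6 (-3.99), Mfap4 (-3.92), C6h14orf180 (-3.35), Cemip (-3.18), Cilp (-3.04), Piezo2 (-2.89), Fibin (-2.85), Col11a1 (-2.82), Il33 (-2.75), Frem1 (-2.73), Lims2 (-2.70) and Penk (-2.67). Col6a6, Col11a1, Mfap4, Cilp and Frem1 encode proteins of the extracellular matrix, and Cemip a protein that degrades hyaluronan. Mfap4 spread from 0.628 to 55.2 CPM within DMSO1. Lims2, an adaptor of integrin adhesions, showed no such spread, with 8.35 to 12.1 CPM (median 9.80) in 5FU against 51.4 to 75.6 CPM (median 66.4) in all 6 controls.

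Targets of p53 were higher in 5FU, led by the cell cycle inhibitor Cdkn1a and the stress cytokine Gdf15. Of 39 targets measured, 23 rose and 5 fell, with a median log2 fold change of 0.36. Without library 1, 24 rose and 6 fell (median 0.37). Cdkn1a lay at 841 to 913 CPM (median 889) in the 5FU libraries and at 95.8 to 114 CPM (median 110.0) in 5 DMSO1 libraries. The log2 fold change was 2.10 ± 0.24 (SE) with library 1 (FDR 1.6e-11) and 3.04 ± 0.10 without it (FDR 5.4e-34), so that 1 library changed the estimate by nearly 1 on the log2 scale. Mdm2, the ubiquitin ligase that degrades p53, was at 185 to 216 CPM (median 197) in 5FU, 51.6 to 59.7 CPM (median 56.3) in the 5 controls and 191 CPM in library 1, inside the 5FU range. Its log2 fold change was 1.34 ± 0.16 with and 1.83 ± 0.09 without library 1 (SE).

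Proapoptotic targets showed the same arrangement of libraries. Fas, a death receptor, was at 20.9 to 25.7 CPM (median 23.4) in 5FU and 6.60 to 7.53 CPM (median 7.38) in the 5 controls, and library 1, at 25.4 CPM, was again inside the 5FU range. Bax, which opens the outer mitochondrial membrane, was at 109 to 119.8 CPM (median 114) in 5FU and 47.3 to 59.5 CPM (median 50.3) in the 5 controls, and library 1 exceeded every 5FU library at 128 CPM. The receptor gene Eda2r did so too, with 50.1 CPM in library 1 against 27.7 to 37.9 CPM (median 35.5) in 5FU and 8.93 to 11.5 CPM (median 10.2) in the other controls (log2 fold change 1.01 with and 1.74 without library 1). For these genes the groups overlapped only through library 1: 10 of the 39 targets had all 6 5FU libraries above all 6 controls, and 22 had them above the other 5 (of all genes, 22.3% and 26.8%). Gdf15 was at 52.3 to 63.5 CPM (median 58.8) in 5FU, 6.14 to 7.54 CPM (median 7.38) in the 5 controls and 58.5 CPM in library 1, and its fold change went from 1.88 ± 0.29 to 3.05 ± 0.21 (SE) when that library was left out. Pmaip1, which encodes the proapoptotic protein Noxa, did not pass the threshold at 24 hours (0.39 ± 0.23, FDR 0.14; without library 1 0.67 ± 0.24, FDR 0.013). The 5 targets that fell were Spata18 (-1.89), Ercc5 (-0.67), Dcxr (-0.66), Ddb2 (-0.62) and Tp53i11 (-0.49), of which Ercc5 and Ddb2 belong to nucleotide excision repair.

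**Figure D3:**
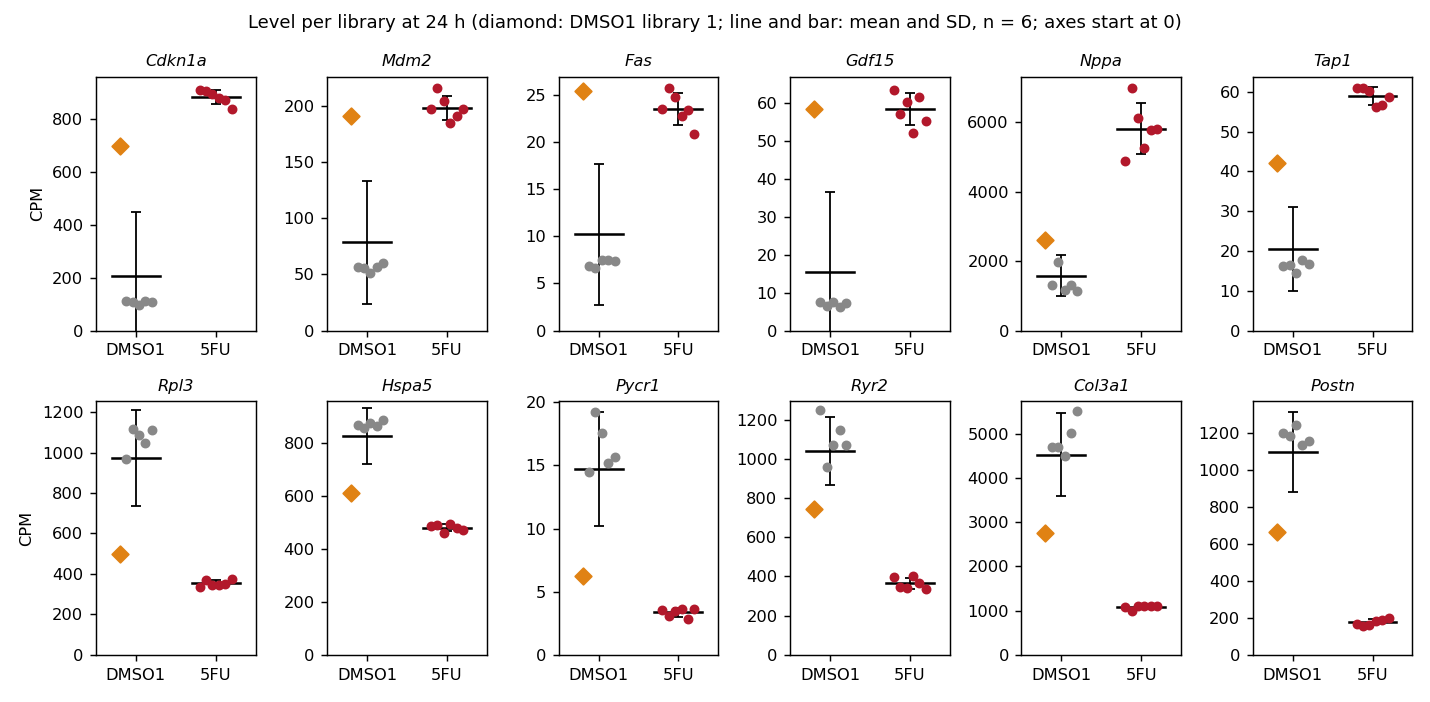
Level (CPM, linear axis from 0) of 12 genes in the 6 DMSO1 and 6 5FU libraries at 24 hours; gray and red points are libraries, the orange diamond is DMSO1 library 1, and the line and bar give the mean and SD over 6 libraries, library 1 included (bars that would pass below 0 end at the axis). For Mdm2, Fas and Gdf15 library 1 sits among the 5FU libraries, whereas for Nppa, Hspa5, Ryr2 and Postn it sits between the groups.

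5FU acts on the thymidylate and folate cycle, where single genes moved in both directions. Of 23 genes, 6 rose and 9 fell (9 and 10 without library 1). Tyms, the thymidylate synthase that 5FU blocks, was at 37.2 to 42.9 CPM (median 39.6) in 5FU and 31.3 to 35.3 CPM (median 32.9) in the 5 controls, and at 57.8 CPM in library 1, above all other libraries. It did not pass the threshold with library 1 (log2 fold change 0.09 ± 0.08 (SE), FDR 0.34) and did without it (0.26 ± 0.06, FDR 9e-05). Mthfd2l, a mitochondrial folate enzyme, rose (1.04). Aldh1l2, the mitochondrial formyltetrahydrofolate dehydrogenase, fell most (-2.35 ± 0.13), from 26.2 to 66.3 CPM (median 59) in DMSO1 to 10.2 to 11.4 CPM (median 10.7) in 5FU. This gene is also in the group of ATF4 targets described below, where its fall was again the largest. Of 20 genes that take up, activate or break down 5FU, 5 rose and 7 fell. Dpyd, the enzyme that starts the breakdown of 5FU, fell by 0.67 on the log2 scale (FDR 0.00016), from 5.43 to 7.54 CPM (median 6.30) to 3.39 to 4.63 CPM (median 3.88), and Tk1, the salvage kinase for thymidine, fell by 0.51 (FDR 9.8e-06).

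DNA repair genes moved by less than 1 log2 unit in most cases. Of 22 genes of uracil and base excision repair 9 rose and 4 fell, of 8 mismatch repair genes 5 rose and 1 fell, of 20 nucleotide excision repair genes 11 rose and 4 fell (10 and 4 without library 1), and of 45 genes of double-strand break and Fanconi repair 13 rose and 12 fell (15 and 12). Tdg and Mbd4, glycosylases that remove thymine and uracil from mismatches with guanine, rose by 0.53 ± 0.05 and 0.64 ± 0.12 (SE), and Ung, the main uracil glycosylase, did not pass the threshold (0.19 ± 0.07, FDR 0.013). Tdg lay at 117 to 138 CPM (median 123) in 5FU and 79.8 to 93.9 CPM (median 88.9) in DMSO1, without overlap. Among 51 replication genes 21 rose and 5 fell (21 and 6 without library 1), and the risers included subunits of DNA polymerase delta (Pold2 0.89, Pold1 0.82), the replication protein Rpa2 (0.86) and Pcna, the sliding clamp (66.4 to 77.4 CPM (median 71.8) in 5FU, 39.8 to 46.9 CPM (median 45.9) in DMSO1). Mcm7 (-0.97), a subunit of the replicative helicase, and E2f2 (-0.91) fell. Of 15 Bcl2 family genes 7 rose, among them Bok (0.81), and 3 fell, among them the survival gene Bcl2 (-0.47). Of 15 histone genes 5 rose and 3 fell, and of 19 cyclins, kinases and inhibitors of the G1 phase 3 rose and 9 fell.

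Genes of the endoplasmic reticulum (ER) stress response and of the ATF4 amino acid response were lower in 5FU. In the first, the transcription factors Xbp1 and Atf6 induce chaperones of the ER when unfolded proteins collect there, and they bind a bipartite promoter element, the ER stress element. ATF4 induces genes for amino acid synthesis and import through an element that joins parts of a C/EBP and an ATF site. Promoters of 3 ER stress genes and 2 ATF4 targets are shown because these genes fell together and carry the elements. Each runs 5′ to 3′ on its gene's strand over the 250 bases that end just before the RefSeq transcription start, and capitals mark the element.
Hspa5 (GRCr8 chr3:38452766-38453015, plus strand): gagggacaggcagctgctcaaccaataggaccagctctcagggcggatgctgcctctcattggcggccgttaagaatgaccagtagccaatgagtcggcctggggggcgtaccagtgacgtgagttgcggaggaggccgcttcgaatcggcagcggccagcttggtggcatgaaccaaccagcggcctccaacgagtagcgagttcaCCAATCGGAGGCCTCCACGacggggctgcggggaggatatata
Xbp1 (GRCr8 chr14:84604373-84604622, plus strand): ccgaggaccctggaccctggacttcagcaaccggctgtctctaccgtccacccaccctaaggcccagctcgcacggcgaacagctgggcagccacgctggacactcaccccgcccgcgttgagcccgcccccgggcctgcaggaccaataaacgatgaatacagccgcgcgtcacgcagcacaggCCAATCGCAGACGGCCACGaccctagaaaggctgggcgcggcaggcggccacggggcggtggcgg
Calr (GRCr8 chr19:40213117-40213366, plus strand): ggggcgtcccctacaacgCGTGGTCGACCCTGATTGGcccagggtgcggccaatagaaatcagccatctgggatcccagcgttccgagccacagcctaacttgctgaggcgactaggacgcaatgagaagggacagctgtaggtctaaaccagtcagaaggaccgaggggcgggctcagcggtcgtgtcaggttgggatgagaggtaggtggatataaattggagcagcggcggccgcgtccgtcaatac
Chac1 (GRCr8 chr3:126795881-126796130, plus strand): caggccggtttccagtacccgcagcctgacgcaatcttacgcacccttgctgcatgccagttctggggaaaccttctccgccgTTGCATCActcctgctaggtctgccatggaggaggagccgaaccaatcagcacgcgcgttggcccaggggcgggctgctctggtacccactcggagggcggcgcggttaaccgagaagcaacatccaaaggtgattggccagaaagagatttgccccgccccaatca
Pycr1 (GRCr8 chr10:106420813-106421062, minus strand): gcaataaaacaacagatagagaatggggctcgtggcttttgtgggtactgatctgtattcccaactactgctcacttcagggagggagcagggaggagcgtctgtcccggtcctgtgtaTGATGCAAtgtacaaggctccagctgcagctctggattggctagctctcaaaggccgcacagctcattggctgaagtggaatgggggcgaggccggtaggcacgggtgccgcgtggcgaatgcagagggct
The ER stress element was searched on both strands as CCAAT and CCACG with 9 bases of any kind between them, of which CCAAT is a promoter box in its own right, and the ATF4 element as TTGCATCA. The first was present in 9 of the 19 ER stress genes that have a promoter sequence in the RefSeq table (47.4%) and in 22 of all 33469 promoters (0.0657%). Of these 9 genes 8 fell in 5FU (Hspa5, Hsp90b1, Dnajc3, Calr, Canx, Xbp1, Creld2 and Ero1b), beside 19 of 25 in the whole group. The second was present in 3 of 26 ATF4 targets (11.5%) and in 0.693% of all promoters. All 3 genes fell (Chac1, Pycr1 and Nupr1), beside 22 of 30 in the whole group. A match of letters is a description of the promoter and does not show that a factor was bound. Here and below a gene of a group was counted if any of its promoters matched, whereas the share of all promoters counts each promoter singly. The groups were written from knowledge of these pathways, so a high share in them is no test of a link to 5FU.

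Of 25 ER stress genes, 19 fell and 2 rose (median -0.45; without library 1, 20 fell and 2 rose). Hspa5, the ER chaperone BiP, was at 461 to 495 CPM (median 482) in 5FU and 855 to 886 CPM (median 865) in 5 controls, with library 1 at 610.0 CPM between the groups (log2 fold change -0.78 ± 0.07 (SE), FDR 3.1e-14). Calr, the calcium-binding chaperone calreticulin, was at 354 to 396 CPM (median 368) in 5FU and 687 to 713 CPM (median 701) in 5 controls, with library 1 at 466 CPM (-0.84 ± 0.07). Xbp1 was at 29.3 to 32.8 CPM (median 31.5) in 5FU and 72.0 to 83.8 CPM (median 76.3) in 5 controls, with library 1 at 46.4 CPM (-1.19 ± 0.07). In each of these 3 genes the lowest control, library 1, was above the highest 5FU library. The largest fall was that of Sdf2l1, a cofactor of BiP (-1.48 ± 0.14). Ero1a, an oxidase for disulfide bonds that is also induced by hypoxia, was 1 of the 2 that rose (0.63 ± 0.11), with Dnajb11 (0.18). Ddit3, the stress-induced transcription factor CHOP, fell by 0.29 on the log2 scale (FDR 0.00058).

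Of 30 ATF4 targets, 22 fell and 3 rose (median -0.88; without library 1, 23 fell and 3 rose). The 3 that rose, Gdf15, Sesn2 (0.80) and Ddit4 (0.49), are also in the p53 group. Atf4 itself was at 88.1 to 104 CPM (median 93.0) in 5FU and 157 to 197 CPM (median 182) in DMSO1 (-0.94 ± 0.10, FDR 4e-13). Pycr1, the last enzyme of proline synthesis, was at 2.84 to 3.68 CPM (median 3.54) in 5FU and 14.5 to 19.2 CPM (median 15.7) in 5 controls, with library 1 at 6.23 CPM (-2.12 ± 0.14 with, -2.28 ± 0.11 without library 1). Chac1, which degrades glutathione, was at 3.28 to 4.93 CPM (median 4.17) in 5FU and 8.48 to 17.1 CPM (median 13.6) in DMSO1 (-1.63 ± 0.16). The cystine importer Slc7a11 (-1.6), the arginine importer Slc7a3 (-2.09), cystathionine lyase Cth (-1.86) and the serine synthesis enzymes Psat1 (-1.09) and Phgdh (-0.90) fell as well. Asns, asparagine synthetase, fell less (-0.49 ± 0.10), and Atf3 did not pass the threshold (0.17). Of 20 aminoacyl-tRNA synthetases, several of which ATF4 also induces, 9 fell and 4 rose (10 and 3 without library 1).

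Genes of the interferon response rose, and so did nearly all genes of the proteasome. The interferon genes are induced through the interferon-stimulated response element, shown here in capitals in 2 promoters of genes that rose, again over the 250 bases before the RefSeq start.
Ifit3 (GRCr8 chr1:241527076-241527325, plus strand): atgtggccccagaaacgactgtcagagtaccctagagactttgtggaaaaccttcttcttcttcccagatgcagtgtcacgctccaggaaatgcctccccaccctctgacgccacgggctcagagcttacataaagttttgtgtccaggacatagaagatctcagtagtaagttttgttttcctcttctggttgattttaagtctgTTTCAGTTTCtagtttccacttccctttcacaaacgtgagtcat
Tap1 (GRCr8 chr20:4668544-4668793, minus strand): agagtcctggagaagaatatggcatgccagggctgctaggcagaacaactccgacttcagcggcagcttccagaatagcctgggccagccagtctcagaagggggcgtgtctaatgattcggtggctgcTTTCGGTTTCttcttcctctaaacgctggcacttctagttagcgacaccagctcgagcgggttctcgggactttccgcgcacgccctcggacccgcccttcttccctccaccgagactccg
The element was searched on both strands as 2 copies of GAAA with 2 bases of any kind between them, and in both promoters it lies on the strand opposite to the one printed. It was present in 14 of 23 interferon genes with a promoter sequence (60.9%) and in 3.41% of all promoters. Of these 14 genes 10 rose and 1, Bst2, fell, which is near the share of the whole group, in which 21 of 30 rose and 2 fell.

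Of 30 interferon response genes, 21 rose and 2 fell (median 0.66, without library 1 0.73). Rsad2, the antiviral enzyme viperin, had the largest fold change, at 2.68 to 3.77 CPM (median 3.55) in 5FU and 0.261 to 0.785 CPM (median 0.498) in DMSO1 (log2 fold change 2.65 ± 0.28 (SE), FDR 8.9e-13). Ifit3, a binding partner of antiviral IFIT proteins, was at 1.82 to 2.90 CPM (median 2.24) in 5FU and 0.380 to 0.994 CPM (median 0.649) in DMSO1 (1.75 ± 0.26). The groups did not overlap for either gene, although both were at under 4 CPM in every library. Tap1, the peptide transporter that loads class I antigens, was more abundant in counts, at 56.1 to 61.1 CPM (median 59.5) in 5FU and 14.3 to 17.7 CPM (median 16.6) in 5 controls, with library 1 at 42 CPM (1.51 ± 0.12). Oas1a (1.52), Isg15 (1.17), the RNA sensor Ifih1 (1.08), the transcription factor Irf7 (1.06) and the immunoproteasome subunits Psmb9 (0.67) and Psmb8 (0.60) rose with them. Bst2 (-1.09) and Ifit2 (-0.74) fell, and Ifit1 did not pass the threshold (0.14 ± 0.53). Of 32 chemokines and cytokines, 6 rose and 8 fell (8 and 7 without library 1).

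The proteasome degrades proteins tagged with ubiquitin. Of 33 genes, 31 rose and 1 fell, with a median of 0.45 (0.48 without library 1), and 29 had all 5FU libraries above all controls (of all genes, 22.3%). Psmb6, a catalytic subunit of the core, was at 118 to 132 CPM (median 127) in 5FU and 54.4 to 95.6 CPM (median 74.7) in DMSO1 (0.76 ± 0.09 (SE), FDR 1.2e-11). Psmd8, a subunit of the lid, was at 156 to 175 CPM (median 166) in 5FU and 93.9 to 116 CPM (median 97.9) in DMSO1 (0.71 ± 0.06). The log2 fold changes of the 31 risers lay between 0.17 (Psmd7) and 0.76 (Psmb6). The assembly factor Pomp did not pass the threshold (0.54, FDR 0.1), and the gene that fell was Psme4, an activator that binds the core in place of the regulatory particle (-0.20 ± 0.06). Of 23 heat shock factor targets and chaperonins, 13 rose and 1 fell (13 and 2 without library 1). Hspa1b, the inducible chaperone Hsp70, was at 21.2 to 25.1 CPM (median 22.2) in 5FU and 8.04 to 12.7 CPM (median 8.88) in DMSO1 (1.26 ± 0.13), and Hspa8, its constitutive relative, fell in both fits (-0.80). A heat shock element, the promoter sequence that heat shock factors bind, was present in 3 of the 19 genes with a promoter sequence (15.8%) and in 0.663% of all promoters, and of these genes Hsph1 and Hspd1 rose and Hspa8 fell. Of 22 NRF2 targets 8 rose and 2 fell (9 and 3 without library 1).

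Genes that make, process and degrade RNA moved in different directions by role. Of 20 genes of the RNA exosome, the complex that trims and degrades RNA from the 3′ end, 11 rose and 3 fell (median 0.27). Mphosph6, which links the exosome to ribosomal RNA precursors, was at 24.2 to 31.5 CPM (median 26.7) in 5FU and 11.7 to 16.8 CPM (median 14) in DMSO1 (0.95 ± 0.08 (SE), FDR 1.5e-15), and Exosc1, a subunit of its cap, at 17.6 to 20.9 CPM (median 18.8) and 9.27 to 11.9 CPM (median 10.9) (0.82 ± 0.08). Neither gene's groups overlapped. Of 63 ribosome biogenesis genes 28 rose and 9 fell (median 0.18; 28 and 10 without library 1), and of 28 subunits and factors of RNA polymerases I and III 15 rose and 5 fell (14 and 6). Polr1c, a subunit shared by both polymerases, was at 109.7 to 123 CPM (median 117) in 5FU and 42 to 46 CPM (median 42.9) in 5 controls, with library 1 at 70.9 CPM (1.28 ± 0.07). Of 13 pseudouridine synthases, which modify the base that 5FU replaces, 4 rose and 1 fell.

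Cytosolic ribosomal proteins fell more often than they rose, 18 against 3 of 57 (median -0.13), which is near the share of all genes that fell. Rpl3 stood out among them, at 338 to 376 CPM (median 349) in 5FU, 966 to 1118 CPM (median 1086) in 5 controls and 499.7 CPM in library 1 (-1.45 ± 0.09 (SE) with, -1.59 ± 0.06 without library 1). The next largest falls, those of Rpl13a (-0.62), Rpl4 (-0.61) and Rpl12 (-0.55), were smaller. Of 32 splicing factors of the SR and hnRNP families, 16 fell and 5 rose (median -0.25; 18 and 5 without library 1). Hnrnpa1 was at 169.9 to 192 CPM (median 184) in 5FU and 429 to 537 CPM (median 486) in 5 controls, with library 1 at 309 CPM (-1.31 ± 0.08). Hnrnpr (-1.05), Hnrnpl (-1.0) and Srsf6 (-0.91) fell as well, and Hnrnpdl rose (0.93). Rpl3 and several hnRNP genes have processed copies in the genome that could share reads, so their exact levels are uncertain. Of 24 genes of purine and pyrimidine synthesis 7 rose and 6 fell, while Myc, the transcription factor that induces many of these genes, fell from 10.6 to 14.1 CPM (median 12.7) in 5 controls to 2.63 to 3.52 CPM (median 3.05) in 5FU, with library 1 at 4.50 CPM (-1.87 ± 0.17).

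Genes of the extracellular matrix fell, and 2 of their groups had the lowest medians of the 52 groups of genes examined. Of 31 collagen genes, 29 fell and none rose, with a median of -1.34, and without library 1 30 fell (median -1.44). Col3a1, a fibrillar collagen made by fibroblasts, was at 992 to 1109 CPM (median 1099.6) in 5FU and 4497 to 5501 CPM (median 4707) in 5 controls, with library 1 at 2743 CPM between them (-2.07 ± 0.11 (SE), FDR 7.7e-24). Col1a1, the main chain of type I collagen, was at 2716 to 3227 CPM (median 2975) in 5FU and 4452 to 9324 CPM (median 7089) in DMSO1 (-1.25 ± 0.17). Col6a6, a chain of type VI collagen, was at 1.86 to 3.66 CPM (median 3.19) in 5FU and 48.7 to 63.4 CPM (median 56.1) in 5 controls, with library 1 at 15.6 CPM (-3.99 ± 0.23). In 28 of the 31 genes every 5FU library was below every control (of all genes, 20.6%). The 2 collagens that did not pass the threshold were Col20a1 (-0.41, FDR 0.026; without library 1 -0.53, FDR 0.0036) and Col4a6 (-0.26).

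Of 37 matricellular proteins and proteoglycans, 30 fell and none rose (median -1.43, without library 1 -1.50). Postn, periostin, a product of activated fibroblasts, was at 158 to 199 CPM (median 175) in 5FU and 1134 to 1241 CPM (median 1181) in 5 controls, with library 1 at 665 CPM (-2.64 ± 0.15 (SE), FDR 8.4e-24). Fn1, fibronectin, was at 121 to 197 CPM (median 159) in 5FU and 372 to 835 CPM (median 588) in DMSO1 (-1.91 ± 0.21). Ccn2, connective tissue growth factor, was at 9.21 to 11.7 CPM (median 10.9) in 5FU and 19.1 to 41.3 CPM (median 37.1) in DMSO1 (-1.71 ± 0.24). The collagen-crosslinking enzyme Lox (-1.68) and the small proteoglycans Dcn (-1.51) and Lum (-1.50) fell too. Among 34 matrix proteases and inhibitors 20 fell and 3 rose (median -0.47).

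Growth factors and their antagonists fell with the matrix. Of 42 genes of TGF-beta, BMP and Wnt signalling, 27 fell and none rose with library 1 (29 and 1 without it), with a median of -0.41. The secreted BMP and Wnt antagonists were among the largest, with Dkk2 (-2.62), Sfrp2 (-2.19) and Bmper (-2.09). Grem1 and Sfrp4 were at 3 counts or fewer in every 5FU library, and against a floor of 3 counts per library they were at least 4.63 and 3.92-fold lower in 5FU. Of 36 genes of the IGF, FGF, VEGF and PDGF axis 24 fell and 1, Fgfr3 (1.05), rose (median -0.61), and without library 1 25 fell and 1 rose. The IGF-binding protein Igfbp4 (-2.59), the growth factor Igf1 (-1.86) and Fgf16 (-2.14), an FGF of cardiomyocytes, were among those that fell, and Vegfa fell by 1.0 on the log2 scale.

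Fibroblast markers, 7 of which are also in the matrix groups, moved with the matrix genes, 12 of 13 falling and none rising (median -0.93), and their summed level was 5396 to 6060 CPM in 5FU, 15247 to 20215 CPM in 5 controls and 10244 CPM in library 1. Mfap5, the marker that did not pass the threshold, had a mean of only 0.160 CPM in 5FU and 0.188 CPM in DMSO1. Thy1 (-0.42) and Gsn (-0.32) fell less than the matrix genes on that list. Markers of other cells of the heart fell as well: 7 of 11 endothelial markers (summed level 175 to 205 CPM in 5FU and 293 to 341 CPM in 5 controls), 8 of 9 epicardial and mesothelial markers (25.8 to 28.7 and 41.7 to 46.8 CPM), 5 of 12 macrophage markers (109.6 to 128 and 132 to 165 CPM), with C1qc rising, and 3 of 6 Schwann cell and neuron markers, with S100b rising. Of 10 smooth muscle and pericyte markers 6 fell and 2, Myh11 (1.48) and Cnn1 (1.41), rose. All 4 erythroid markers measured rose, from a summed 23.8 to 36.1 CPM in 5 controls to 56 to 83.6 CPM in 5FU. The part of these cell types in the falls and rises of other groups was not tested.

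Among cardiomyocyte genes, most of those for calcium handling and electrical conduction fell, and about as many sarcomere genes changed as did not. Of 39 genes of calcium handling and ion channels 24 fell and 6 rose (median -0.50; 23 and 6 without library 1), and of 38 sarcomere genes 18 fell and 3 rose (median -0.28). Ryr2, the channel that releases calcium from the sarcoplasmic reticulum, was at 338 to 401 CPM (median 357) in 5FU and 746 to 1247 CPM (median 1069) in DMSO1 (-1.51 ± 0.12 (SE), FDR 4.7e-17). Atp2a2, the pump SERCA2 that takes the calcium back, was at 1585 to 1952 CPM (median 1787) in 5FU and 3545 to 5153 CPM (median 4608) in DMSO1 (-1.31 ± 0.08). Cacna1c, the L-type calcium channel of the plasma membrane, was at 107 to 133 CPM (median 112) in 5FU and 172 to 286 CPM (median 243) in DMSO1 (-1.03 ± 0.11). No 5FU library of these 3 genes reached the lowest control. The gap junction proteins Gja1 (-1.34) and Gja5 (-1.96) and the potassium channels Kcna4 (-1.49) and Kcnq1 (-1.36) fell too, whereas Kcna5 (0.94), Scn4b (0.77), Kcnj5 (0.42), S100a1 (0.41), Kcnh2 (0.37) and Kcnj3 (0.33) rose.

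The genes of the sarcomere differed among themselves. Myom2, an M-band protein, was at 24.4 to 36.5 CPM (median 31.3) in 5FU and 114 to 157 CPM (median 139) in DMSO1 (-2.19 ± 0.14 (SE), FDR 1.4e-20), and the M-band genes Myom3 (-1.37) and Myom1 (-0.83) fell with it. Actc1, cardiac actin, fell from 3156 to 5562 CPM (median 4816) to 1480.3 to 1801 CPM (median 1652) (-1.50 ± 0.23). Both myosin heavy chains fell, Myh7 by 1.18 and Myh6 by 0.87 on the log2 scale. Troponin T (Tnnt2) and the myosin light chains Myl2 (-0.21) and Myl3 (-0.10) did not pass the threshold, with Tnnt2 at -0.16 ± 0.06 (FDR 0.017), and troponin I (Tnni3) rose by 0.30. Tcap, the titin cap of the Z-disc, rose by 0.86 ± 0.19. Of 24 cardiac transcription factors 12 fell, among them Irx4 (-1.12) and Tbx20 (-0.95), and 2 rose, Tbx5 (0.97) and Tbx3 (0.80), whereas without library 1 11 fell and 2 rose. Gata4 (-0.15) and Nkx2-5 (-0.11) did not pass.

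The natriuretic peptide system split between hormone and receptors. Nppa, atrial natriuretic peptide, was at 4877 to 6993 CPM (median 5789) in 5FU and 1137 to 2600.4 CPM (median 1312) in DMSO1 (1.88 ± 0.17 (SE), FDR 1.4e-14), and every 5FU library was above every control. Npr3, the receptor that clears the peptide, was at 0.402 to 1.31 CPM (median 1.12) in 5FU and 9.03 to 12.1 CPM (median 10.2) in 5 controls, with library 1 at 3.30 CPM (-3.16 ± 0.22). Corin, the protease that activates the peptide, fell by 1.28, and the signalling receptors Npr1 and Npr2 fell by 0.73 and 0.75 on the log2 scale. Nppb, the related brain natriuretic peptide, did not pass the threshold (-0.01 ± 0.36, FDR 0.98).

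Energy metabolism changed little in size. Of 73 oxidative phosphorylation genes 39 rose and 2, Sdha and Uqcrc2, fell, with a median of 0.21, and without library 1 43 rose and 1 fell (Uqcrc2 at FDR 0.0038 with and 0.013 without it). Of 27 TCA cycle genes 12 rose and 6 fell (14 and 6 without library 1), of 32 fatty acid oxidation genes 5 rose and 5 fell, of 29 glycolysis genes 6 rose and 10 fell (7 and 9), and of 20 regulators of mitochondrial biogenesis and PPAR signalling 5 rose and 7 fell (5 and 5). Ucp3, a mitochondrial carrier of muscle, was at 0.998 to 2.22 CPM (median 1.33) in 5FU and 0.0590 to 0.609 CPM (median 0.373) in DMSO1 (1.86 ± 0.34 (SE), FDR 3.3e-06). Of 25 cholesterol synthesis genes 8 rose and 7 fell (6 and 7 without library 1), and of 18 genes of fatty acid and triglyceride synthesis 5 rose and 7 fell (6 and 8).

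The 24-hour difference was next set against that at 6 hours, which has 6 5FU and 6 DMSO1 libraries of its own. At 6 hours 6971 genes (47.9%) were called, 3408 higher (23.4%) and 3563 lower (24.5%). This split depended on scaling, since with library sizes alone in place of TMM factors 2478 genes were higher and 4258 lower at 6 hours. When the effects at the 2 times were tested against each other, 5755 genes differed (39.5%), 2961 with a more positive effect at 24 hours (20.3%) and 2794 with a more negative one (19.2%), and without library 1 6016 genes did (41.3%; 21.3% more positive and 20% more negative).

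Collagens had the largest median shift of the 52 groups between the times. At 6 hours 3 of 31 were higher and 5 lower (median -0.07), and 27 had a more negative effect at 24 hours (median of the differences -1.31). For Col3a1 the level in DMSO1 was 1642 to 2358 CPM (median 1906) at 6 hours and 2743 to 5501 CPM (median 4706) at 24 hours, while that in 5FU was 1266 to 2028 CPM (median 1687) at 6 hours and 992 to 1109 CPM (median 1099.6) at 24 hours. For Col6a6 DMSO1 went from 4.30 to 6.01 CPM (median 5.05) to 15.6 to 63.4 CPM (median 52.5), and 5FU from 2.32 to 3.92 CPM (median 3.15) to 1.86 to 3.66 CPM (median 3.19). In both genes the control level was higher at 24 hours than at 6 hours without overlap, and the 5FU level was not. The difference of the effects was -1.83 ± 0.16 (SE) for Col3a1 (FDR 4.3e-15) and -3.30 ± 0.35 for Col6a6 (FDR 5.5e-12). Ryr2 had a similar course, with 487 to 660.0 CPM (median 598) in DMSO1 and 475 to 705 CPM (median 559.9) in 5FU at 6 hours, and a difference of -1.45 ± 0.17 (FDR 9.1e-11). Matricellular genes followed, 26 of 37 being more negative and 1 more positive at 24 hours (28 and 1 without library 1).

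ER stress genes, in which 7 of 25 were higher and 4 lower at 6 hours (6 and 6 with library sizes alone), had 18 more negative effects at 24 hours and none more positive. Calr was at 791 to 1006 CPM (median 871) in 5FU and 775 to 903 CPM (median 848) in DMSO1 at 6 hours (0.08 ± 0.07 (SE), FDR 0.31), and the groups separated only at 24 hours (difference -0.92 ± 0.10, FDR 9.1e-12). Of 30 ATF4 targets 15 were more negative and 1 more positive at 24 hours (16 and 1 without library 1), with Pycr1 at -0.16 at 6 hours (FDR 0.25) and a difference of -1.96 ± 0.19 (FDR 1.4e-13). Of 57 ribosomal proteins 54 were higher at 6 hours (median 0.32; 41 with library sizes alone) and 3 at 24 hours, and 46 were more negative at 24 hours (39 without library 1). Rpl3 was not called at 6 hours (0.11, FDR 0.31) and had a difference of -1.56 ± 0.13 (FDR 8.8e-16). Of 73 oxidative phosphorylation genes 71 were higher at 6 hours (median 0.36). At 24 hours 13 were more negative and 1 more positive (11 and 1 without library 1). The negative share was near the 19.2% of all genes, and the positive share was below their 20.3%. The median of the differences was -0.14, against -0.015 over all genes.

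**Figure D4:**
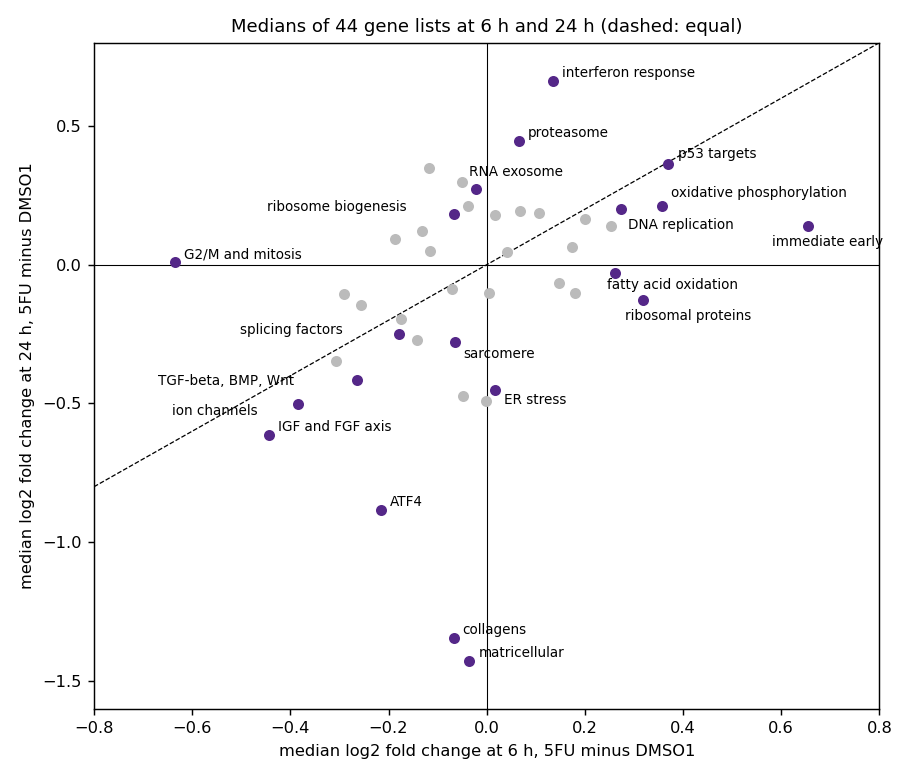
Median log2 fold change between 5FU and DMSO1 of 44 gene groups at 6 hours (horizontal axis) and 24 hours (vertical axis); labelled groups are purple, others gray, and the dashed line marks equal medians. Collagens and matricellular proteins lie near 0 at 6 hours and at -1.34 and -1.43 at 24 hours, whereas G2/M genes lie at -0.63 at 6 hours and 0.01 at 24 hours.

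Genes of G2 and mitosis went the other way. At 6 hours 43 of 61 were lower and 2 higher (median -0.63), at 24 hours 9 were lower and 17 higher (median 0.01; 8 and 18 without library 1), and 45 (46) had a more positive effect at 24 hours and none a more negative one. Plk1, a mitotic kinase, was at 9.71 to 15.5 CPM (median 11.6) in 5FU and 34.3 to 44.6 CPM (median 36.3) in DMSO1 at 6 hours, without overlap (-1.71 ± 0.10 (SE), FDR 5.3e-23), and at 11.6 to 14.5 CPM (median 13.7) and 13.5 to 17.9 CPM (median 15.1) at 24 hours, with overlap (-0.22 ± 0.10, FDR 0.051). In DMSO1 the Plk1 level was itself lower at 24 hours than at 6 hours, without overlap. Cenpf, a kinetochore protein, was lower at both times (-2.22 and -0.98) with a difference of 1.24 ± 0.26 (FDR 7.7e-05). Gtse1, a regulator of p53 in G2, rose at both times (1.81 and 2.19), and its difference did not pass the threshold with library 1 (0.37, FDR 0.33) and did without it (1.26, FDR 6.6e-10), as also held for Cdkn1a (0.23, FDR 0.59, and 1.17, FDR 2.7e-11).

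Fewer proteasome genes were called at 6 hours, when 9 of 33 were higher and 3 lower (median 0.07), and 27 had a more positive effect at 24 hours. The direction at 6 hours depended on scaling, since with library sizes alone 3 were higher and 6 lower (median -0.01), while 27 were again more positive at 24 hours. Interferon response genes were higher in 7 and lower in 3 of 30 cases at 6 hours, and 9 were more positive and 2 more negative at 24 hours (12 and 2 without library 1). Rsad2 was at 0.504 to 1.49 CPM (median 0.777) in 5FU and 0.580 to 1.09 CPM (median 0.682) in DMSO1 at 6 hours, with overlap, and its difference was 2.52 ± 0.41 (SE, FDR 5e-07). Tap1 was called at both times (1.38 at 6 hours) and its difference did not pass with library 1 (0.13, FDR 0.57) and did without it (0.47, FDR 0.00019). Ifit1 had the reverse course, with 2.85 at 6 hours and a difference of -2.71 ± 0.65 (FDR 0.00038). Of 39 p53 targets 23 were higher and 7 lower at 6 hours, and the differences were divided, 5 more positive and 7 more negative with library 1 and 12 and 5 without it (8 and 5 with library 1 and library sizes alone). Gdf15 was at 3.84 ± 0.31 (SE) at 6 hours, with 77.5 to 236 CPM (median 102) in 5FU against 6.29 to 10.9 CPM (median 8.23) in DMSO1. Its difference between the times passed the threshold with library 1 (-1.96, FDR 7.5e-05) and did not without it (-0.79, FDR 0.015). Of 23 immediate early genes 14 were higher at 6 hours, 7 were higher and 3 lower at 24 hours (7 and 2 without library 1), and 8 (7) had a more negative effect at 24 hours.

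**Figure D5:**
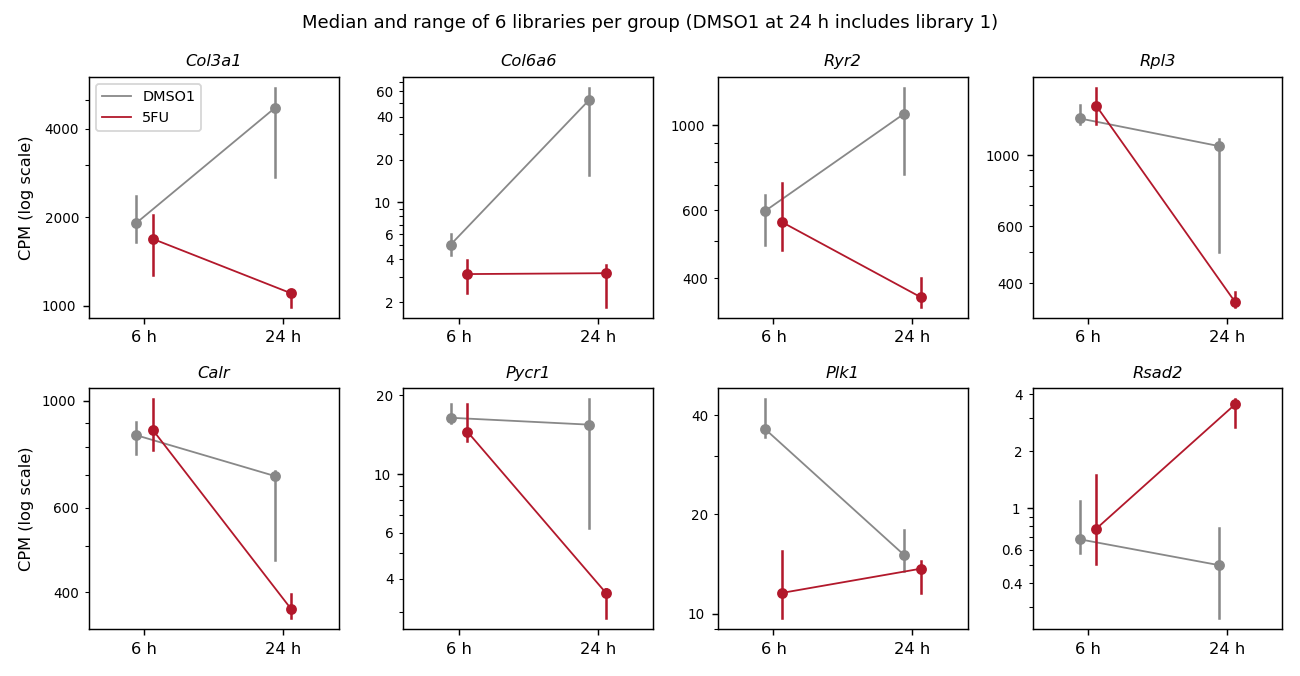
Level (CPM, log axis) of 8 genes at 6 and 24 hours in DMSO1 (gray) and 5FU (red); points are medians, vertical lines the range of 6 libraries, and DMSO1 at 24 hours includes library 1. For Col3a1, Col6a6 and Ryr2 the DMSO1 median at 24 hours is above that at 6 hours, for Rpl3, Calr and Pycr1 the 5FU median drops between the times, and for Plk1 the groups are apart at 6 hours and overlap at 24 hours.

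The other drugs of the study were used to see where the response to 5FU differed, each against its own DMSO2 control. The effect of 5FU differed from that of Dox in 10355 genes (71.1%), more positive in 5146 (35.4%) and more negative in 5209 (35.8%), and from that of Ace in 5429 genes (37.3%), more positive in 2650 (18.2%) and more negative in 2779 (19.1%). Without library 1 these counts were 10313 (70.9%; 35.4% and 35.5%) and 5748 (39.5%; 19.7% and 19.8%). The doses and DMSO shares differ between the drugs, so these are differences between the treatments as given. Against DMSO2, Dox alone moved 81.4% of all genes (40.4% higher, 41% lower) and Ace 37.2% (18.2% higher, 19.1% lower), and 5FU set against DMSO2 in place of DMSO1 moved 61.4% (30.3% higher, 31.1% lower). Targets of p53 had a median of 1.27 in Dox, and 28 of 39 had a more negative effect in 5FU than in Dox and 4 a more positive one (29 and 6 without library 1). Against Ace 7 were more positive and 9 more negative with library 1, and 16 and 6 without it. Pmaip1 was an example, with 7.63 in Dox and 0.39 in 5FU (FDR of the difference 3.6e-30), while for Phlda3, with 1.21 in Dox and 1.42 in 5FU, the difference did not pass the threshold with library 1 (FDR 0.31) and did without it (1.82 in 5FU, FDR 2.7e-07). For the proteasome 25 of 33 genes had a more positive effect in 5FU than in Dox, and 21 than in Ace (26 and 22 without library 1). Psmb6 had -0.51 in Dox, 0.27 in Ace and 0.76 in 5FU (FDR of the differences 2.9e-15 and 0.00039).

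Sarcomere and calcium handling genes fell less in 5FU than in Dox, with 24 of 38 and 24 of 39 more positive in 5FU. Against Ace they were more negative in 13 and 17 cases (12 and 17 without library 1). Ryr2 had -3.78 in Dox and -0.36 in Ace (FDR of the differences from 5FU 1e-19 and 2e-08). Collagens fell in the other drugs as well, 20 of 31 in Dox (6 rose, median -1.02) and 20 in Ace (2 rose, median -0.74). They were more negative in 5FU than in Ace in 22 of 31 cases, and against Dox 12 were more negative and 10 more positive (13 and 9 without library 1). Of 13 fibroblast markers 11 fell in each of Dox and Ace and none rose (medians -2.09 and -1.24). Of 37 matricellular genes 21 fell and 8 rose in Dox, and 31 fell in Ace. Of 30 interferon genes 17 rose and 8 fell in Dox, with 9 more positive and 10 more negative in 5FU. In Ace 9 rose and 4 fell, and 12 were more positive in 5FU (13 without library 1). Fn1 separated 5FU from both, with 0.34 in Dox and -0.51 in Ace (FDR 1.1e-10 and 2.7e-05), as did Rpl3, with -0.50 and -0.24 (FDR 2.8e-10 and 1.7e-12). Of the 61 G2/M genes 57 were higher in Ace, and 50 had a more negative effect in 5FU than in Ace (47 without library 1). ATF4 targets were more negative in 5FU than in Dox in 18 of 30 cases and than in Ace in 17 (20 and 16 without library 1). For Pycr1 the effect was 0.04 in Dox and -0.58 in Ace (FDR of the differences 3.8e-17 and 1.8e-10).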

How the data were processed

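RNA-seq with poly(A) selection and paired reads was done on 65 culture wells, of which the 6 5FU and 6 DMSO1 libraries at 24 hours are compared here. The authors pseudoaligned reads to the Ensembl v96 rat transcriptome with kallisto (0.46.0, also in the submitters' processing notes), used tximport to sum transcripts to Entrez genes, dropped those of low count, and the deposited table holds these estimated counts as whole numbers, on which no further rounding was needed. Counts estimated in this way divide reads of near-identical genes between them. Libraries were assigned to groups by the treatment and time in their labels and column headers, which carry no replicate numbers, and libraries are numbered in file order. All 14554 genes reached 10 counts in at least 1 library. Symbols (14009 genes) and the 250-base promoters come from RefSeq, assembly GRCr8.

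The tests were edgeR's quasi-likelihood tests (R 4.3.3, edgeR 4.0.16) in 1 model of all 65 libraries and 10 groups with TMM factors, called at a Benjamini-Hochberg FDR below 0.01 over all genes. DESeq2 (1.42.0) was an alternative. Levels are CPM after TMM scaling, log2 CPM uses a prior count of 2, and a floor of 3 counts bounds folds of absent genes. In counts simulated for this comparison over 14477 genes, the test recovered 94% of 100 changes of log2 size 1 and 67% of 100 of size 0.5, with 3 false calls among 164. Only these genes, all above a minimum mean count, were changed there, and no simulated library stood apart. In the data 55.8% of genes were called and library 1 was included, so these figures need not hold for the comparison itself. The largest changes named are the 12 highest and 12 lowest fold changes with a symbol, a mean count of at least 100 and an FDR below 0.01 with and without DMSO1 library 1, and other genes are named beside their group. The 52 gene groups and the genes described were chosen with earlier results of these data known. They were written by hand (1492 genes, 1360 of them in the table) and no test over a group was made. Group medians at 6 hours and of the 24-hour minus 6-hour difference under other scalings, and counts against Dox and Ace and values of named genes without DMSO1 library 1, were added after seeing the data.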

Additional observations from a re-analysis of the deposited data

Results flagged for a closer look

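Among 65 genes, each tested for a library far from the rest of its group in 5FU and in DMSO1, 33 of 130 sets of 6 libraries held 1, and 31 of the 33 were DMSO1 library 1. In sets not chosen for it chance flags about 1 in 20, but these genes include Cdkn1a and 10 others named because library 1 was far from the rest in them, they are correlated and they come from 1 library, so their number is a description and no test. In that library the p53 targets lay above the other controls, with 699 CPM of Cdkn1a, 191 CPM of Mdm2, 25.4 CPM of Fas, 128 CPM of Bax, 50.1 CPM of Eda2r, 13.7 CPM of Psrc1 and 58.5 CPM of Gdf15. Gtse1 (88 CPM), Ddias (9.11 CPM), Ano3 (42.1 CPM), Adprhl1 (94.9 CPM), Tg (11.04 CPM), Rasgrp1 (6.75 CPM), Ltk (13.3 CPM), Tyms (57.8 CPM), Tap1 (42.03 CPM) and the gene with the identifier ID100912604 (17.8 CPM) were also above them. Matrix genes lay below the other controls, with 2743 CPM of Col3a1, 15.6 CPM of Col6a6, 665 CPM of Postn, 12.2 CPM of Cilp, 8.74 CPM of Fibin and 13.8 CPM of Frem1. So did Hspa5 (610.0 CPM), Xbp1 (46.4 CPM), Calr (466 CPM), Pycr1 (6.23 CPM), Rpl3 (499.7 CPM), Myc (4.501 CPM), Npr3 (3.297 CPM) and Srm (4.08 CPM). The remaining 2 flags were 5FU libraries, with Col3a1 at 992 CPM in library 2, the lowest of its group, and Ucp3 at 2.22 CPM in library 6, the highest.

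The effect of 5FU at 24 hours differed, by a test of the difference itself in edgeR, from that at 6 hours in 5755 genes, from that of Dox in 10355 genes and from that of Ace in 5429 genes.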

How the results depend on the processing

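The count of genes that differed between 5FU and DMSO1 was 7985 to 8182 under library size alone, DESeq2 size factors, other filters on low counts, a fit of the 12 libraries alone and DESeq2's own test. It was 8941 against DMSO2 and 10090 at an FDR below 0.1. A fold change of at least 1 on the log2 scale lowered it to 1490, and lowered the counts of genes whose 5FU effect differed from that at 6 hours, that of Dox and that of Ace to 1048, 5335 and 915. When single libraries were left out, these 4 counts ranged over 7715 to 8304, 5475 to 6016, 10199 to 10324 and 5096 to 5748 genes, and omitting DMSO1 library 1 gave the highest of each but that for Dox. Of 156 group medians under other scalings or without DMSO1 library 1, 152 moved by less than the spread between replicates. The other 4 were those without library 1 of base excision repair (0.22), mitochondrial biogenesis and PPAR regulators (-0.031), calcium handling and ion channels (-0.55) and immediate early genes (-0.024, from 0.14), and the cause was not tested. The spread was taken over libraries that include library 1, which widens it, so it is a lenient measure for leaving that library out. The other scalings moved the median over all genes only from -0.0094 to -0.015 and -0.0074. The count of 152 is therefore a description and no test of robustness. Of 608 values of 32 named genes, 593 kept their direction and side of the threshold. In 6 values a called gene no longer passed, in 3 a gene not called did pass, and in 6 the sign turned. Ano3 passed the threshold without library 1 and against DMSO2. The sign turned for Atn1, which never passed, without 5FU libraries 1, 4 and 5 (0.12, 0.06 and 0.16) and without DMSO1 libraries 1 and 2 (0.64 and 0.07), the range over all single omissions being -0.50 to 0.64, and for ID100912604 against DMSO2 (-0.29). No paired analysis was possible because the columns of the count table carry no replicate numbers. Genes at under a few counts were limited by depth: 288 genes had 3 counts or fewer in every 5FU library and 236 in every DMSO1 library.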
